A study of Mus musculus with 47 samples.

Results

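The genes described here are 9 targets and effectors of the Notch pathway: the hairy and enhancer of split genes Hes1, Hes3, Hes5, Hes6 and Hes7, the related Hey1, Hey2 and Heyl, and the Notch-regulated ankyrin repeat gene Nrarp. They were chosen by gene identifier, before any filter on their level, and all 9 were found among the 38347 genes of the tables for the Foxa2 arm and among the 37514 genes of the table for the Nkx2.2 arm. The series follows mouse embryonic stem (ES) cells that were turned into ventral neural progenitors in N2B27 monolayer culture; the 2 agents given were RA (retinoic acid) and SAG, which activates the Sonic hedgehog (SHH) pathway. RNA was poly-A selected and sequenced with a stranded kit, and the values are FPKM, fragments scaled by transcript length and library total, so levels of different genes are given per length. From day 3.5 on, cells carrying the progenitor surface protein prominin were isolated with magnetic beads before RNA extraction. Levels are compared between times only within a table, since undifferentiated cells and days 1 and 2 are in one table, days 3.5 to 7.5 in another and those of the Nkx2.2 arm in their own.

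Foxa2-/- cells (line label C57BL/6) had 3 libraries each undifferentiated and on days 1, 2, 3.5, 4.5 and 5.5, and 2 libraries each on days 6.5 and 7.5. Wild-type (WT) cells (line label E14.5) had 2 libraries each undifferentiated and on days 1 and 2, and 3 libraries on each later day. Undifferentiated cells were untreated, cells of days 1 to 3.5 had both agents up to collection, and cells collected later had RA up to day 3.5 and SAG up to collection. Nkx2.2-/- cells (C57BL/6) and their WT cells (E14.5) had 1 library each on days 3.5 and 5.5, with both agents given up to day 3.5. Genotype and line label changed together in both arms, so a difference between genotypes cannot be told apart from one between lines, and the labels do not say whether a mutant line is 1 clone. Nor do they say that replicates are separate cultures, so p-values measure only the spread between these libraries. The RNA is from bulk cells, in which fewer cells that express a gene and less RNA per cell cannot be told apart.

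Notch receptors are cut by gamma-secretase after they bind a ligand on a neighbouring cell, and the freed intracellular domain joins the DNA-binding protein RBPJ and Mastermind to activate target genes. Hes1, Hes5, Hey1, Hey2 and Heyl encode basic helix-loop-helix repressors that are classical targets of this complex; in the embryonic nervous system Hes1 and Hes5 keep progenitors undifferentiated by repressing proneural genes. Hes6 is the exception in the family, since its protein inhibits Hes1 and it is high in cells that enter neurogenesis. Hes3 is known from the midbrain-hindbrain boundary, Hes7 from the segmentation clock of the presomitic mesoderm, and Nrarp is a Notch target whose small protein limits Notch signalling in return.

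Promoters bear on these genes because RBPJ binds a short core, and the RefSeq promoter table for GRCm38.p6 (250 bases before to 50 bases after a start) had windows for 5 of the 9 genes, namely Hes5, Hes6, Hes7, Hey2 and Nrarp. Hes1, Hes3, Hey1 and Heyl were not in it. The windows of Hes5 (chr4:154960673-154960972, plus strand), Hey2 (chr10:30842734-30843033, minus strand) and Nrarp (chr2:25180508-25180807, plus strand) are printed because Hes5 and Nrarp were both called higher in Foxa2-/- cells on several days and Hey2 was not. Capitals mark each match to the RBPJ core GTGGGAA on either strand, so that TTCCCAC is a match on the other strand.
Hes5: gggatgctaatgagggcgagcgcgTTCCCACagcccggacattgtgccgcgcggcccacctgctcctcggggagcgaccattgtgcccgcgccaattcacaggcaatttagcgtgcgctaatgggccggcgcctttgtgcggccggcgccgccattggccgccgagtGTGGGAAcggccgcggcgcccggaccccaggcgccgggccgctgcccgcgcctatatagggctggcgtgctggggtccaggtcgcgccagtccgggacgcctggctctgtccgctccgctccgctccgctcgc
Hey2: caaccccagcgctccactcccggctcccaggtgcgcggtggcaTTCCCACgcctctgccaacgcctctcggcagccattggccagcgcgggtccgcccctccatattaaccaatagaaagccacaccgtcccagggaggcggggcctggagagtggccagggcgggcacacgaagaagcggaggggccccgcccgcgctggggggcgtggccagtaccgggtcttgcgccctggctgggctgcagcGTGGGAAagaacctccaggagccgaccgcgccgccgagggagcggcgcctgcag
Nrarp: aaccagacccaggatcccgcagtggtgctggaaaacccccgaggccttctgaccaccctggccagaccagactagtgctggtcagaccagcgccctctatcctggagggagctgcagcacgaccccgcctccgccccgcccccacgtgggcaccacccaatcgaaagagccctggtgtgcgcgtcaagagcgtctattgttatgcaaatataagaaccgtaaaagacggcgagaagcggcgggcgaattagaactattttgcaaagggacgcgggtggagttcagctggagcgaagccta
Hes5 and Hey2 each had 2 matches, one on the other strand (at -226 in Hes5 and -207 in Hey2, counted from the start) and one on the gene's own strand (at -83 in Hes5 and -4 in Hey2). Hes7 had 1 match, and both windows of Hes6 and the window of Nrarp had none. Of 32851 promoter windows of the same length, 6.38% held at least 1 match and 0.256% held at least 2. A match describes letters in a window and says nothing of binding in these cells.

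Estimated depth in fragments was 36400000 to 42700000 for libraries of the first table, 14600000 to 33900000 for those of days 3.5 to 7.5 and 10500000 to 13000000 for the Nkx2.2 libraries. Pearson's r between replicates, taken over genes, was 0.864 to 0.95. The FPKM of all genes on day 2 summed to 1384888, 831501 and 1012840 in Foxa2-/- replicates 1, 2 and 3. In WT replicates 1 and 2 of that day they summed to 793578 and 798876, so the levels given for day 2 do not share 1 total. Foxa2, the targeted gene, was at 0.266 FPKM or less in all 22 Foxa2-/- libraries, against 0.589 to 100 FPKM in the 21 WT libraries of that arm. Dependence on transcript length was taken from each library's expression relative to the mean of all libraries of its table. Day and genotype can therefore enter these slopes. Replicates 1 and 3 of day 2 and replicate 1 of day 3.5 of the Foxa2-/- cells stood apart in it. Their slopes were -0.27, -0.121 and -0.148 log2 units per doubling, against 0.035 in replicate 2 of day 2. WT replicate 1 of day 1 stood apart as well (0.152). For undifferentiated Foxa2-/- replicate 3 the source name reads neural progenitors, against its stage label. The prominin gene Prom1, on whose product cells were sorted, stood at 52.6 to 86.6 FPKM in Foxa2-/- cells on days 6.5 and 7.5, against 153.5 to 262 FPKM in WT cells. At least 7 of 8 neural progenitor markers were at FPKM 1 or more in every library from day 3.5 on.

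Hes1 and Hes6 were the most abundant of these genes in undifferentiated cells, and Hes3 and Hes7 stayed below FPKM 1 in all 47 libraries. The order of the levels differed between genotypes late in the course. On day 7.5 Foxa2-/- cells had means of 80.6 FPKM of Hes1, 51.8 of Hes5, 37.3 of Hes6, 32.4 of Hey1 and 32 of Nrarp, followed by 1.93 of Hey2 and 0.759 of Heyl. In WT cells the order was Hey1 at 103 FPKM, Hes1 at 69.7, Hes6 at 17.8, Nrarp at 6.9, Hes5 at 3.4, Heyl at 1.43 and Hey2 at 0.551. Hey1 therefore made up 13.7% of the summed FPKM of the 9 genes in Foxa2-/- cells and 50.7% in WT cells, and Hes5 made up 21.9% and 1.67% of it. Neighbours in the Foxa2-/- order from Hes1 to Nrarp overlapped between libraries, apart from Hes6, whose values (35.8 and 38.8 FPKM) lay above those of Hey1 (31.7 and 33.1 FPKM). In the WT order each gene's libraries lay above those of the next, apart from Nrarp (4.26 to 10.2 FPKM) and Hes5 (2.79 to 4.37 FPKM), which overlapped.

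**Figure D1:**
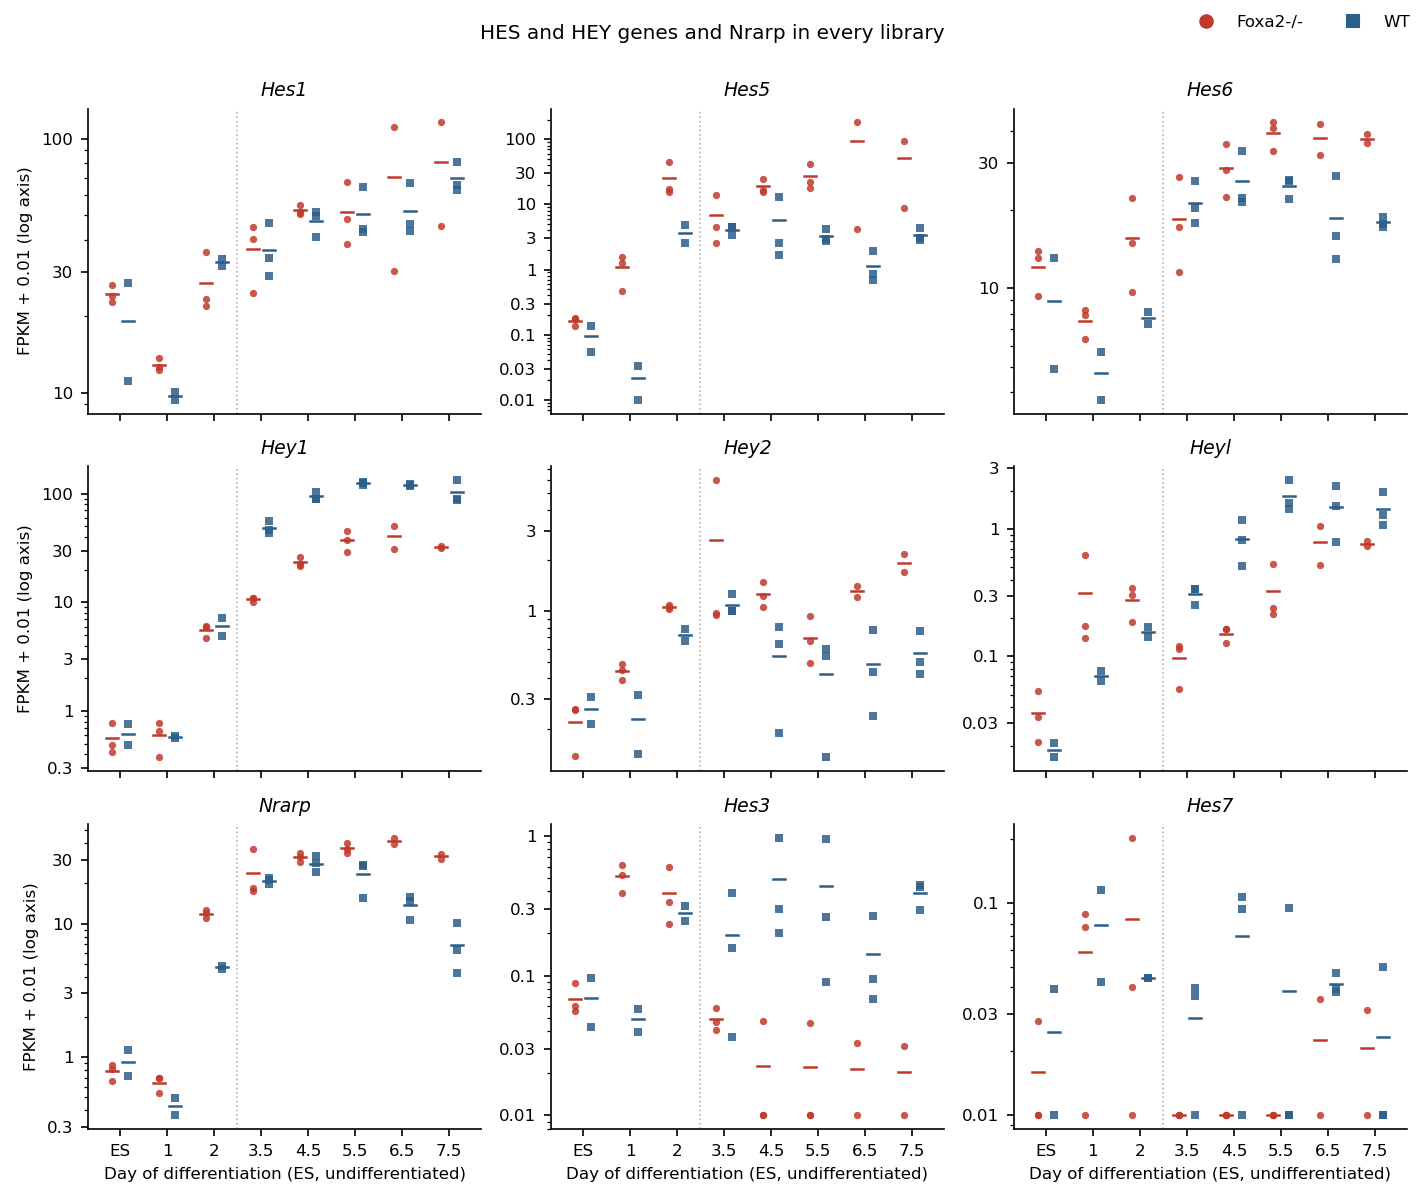
FPKM + 0.01 (log axis) of each of the 9 genes by day, with Foxa2-/- libraries as red circles and WT libraries as blue squares; each point is a library, short bars are group means, and the dotted line parts the tables for undifferentiated cells (ES) to day 2 and for days 3.5 to 7.5. Hey1 separates the genotypes on every day from 3.5 on, while Hes5 spreads widely among the Foxa2-/- libraries of days 6.5 and 7.5.

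Of the 9 genes, 6 passed the filter of FPKM 1 or more in at least 2 libraries in the table up to day 2 (Hes1, Hes5, Hes6, Hey1, Hey2 and Nrarp) and 7 in the table from day 3.5 on, which adds Heyl. The filter acts on the groups unequally: up to day 2, Hey2 passed only through the 3 Foxa2-/- libraries of day 2, and from day 3.5 on Heyl passed through 9 WT libraries and 1 Foxa2-/- library. Tests were run with limma on log2(FPKM + 1) over all genes kept, and a gene was called at an adjusted p under 0.05. On this scale the change of a gene near or below 1 FPKM is understated.

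The first days of differentiation brought Hes5, Hey1, Hey2 and Nrarp up in both genotypes. By day 2 all 4 were called against undifferentiated cells in Foxa2-/- cells, where 54.6% of all genes were called. The same 4 were called in WT cells, where 33.9% of all genes were. Hey2 was kept by the filter only through Foxa2-/- libraries of day 2, and Hey1 only through day 2 libraries of both genotypes. Hes5 was kept through these and Foxa2-/- libraries of day 1, and Nrarp would not have passed without those of day 2. The filter thus favoured these rises, and their calls are descriptions. Hes5, Hey1 and Nrarp were also called without the filter in both genotypes. Hes5 reached 44.3, 15.6 and 17.4 FPKM in Foxa2-/- cells on day 2, after 0.127 to 0.173 FPKM undifferentiated; in WT cells it reached 2.58 and 4.79 FPKM, after 0.0437 and 0.124 FPKM. Day 2 lay above the undifferentiated libraries without overlap in both genotypes, by log2 fold changes of 4.38 ± 0.34 in Foxa2-/- cells and 2.07 ± 0.42 in WT cells (SE; adjusted p = 1.18e-06 and 0.00264). Hey1 rose to 4.66 to 6.02 FPKM in Foxa2-/- cells and to 4.92 and 7.13 FPKM in WT cells, after 0.41 to 0.763 and 0.48 and 0.745 FPKM undifferentiated. Its changes were 2.07 ± 0.16 and 2.11 ± 0.20 on the log2 scale, and the difference between them was -0.04 (95% interval -0.60 to 0.52). Hey2 rose by 0.76 in Foxa2-/- and 0.45 in WT cells and stayed at or below 1.07 FPKM; the WT call was lost without replicate 2 of undifferentiated WT cells (adjusted p = 0.0826) or of day 2 (0.0845).

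Hes1 was the most abundant of these genes in undifferentiated cells. It stood at 12.6, 13.6 and 12.3 FPKM in Foxa2-/- cells on day 1, after 24.1, 26.6 and 22.8 FPKM undifferentiated, and fell by 0.88 on the log2 scale (adjusted p = 0.0173); it was the only 1 of the 6 genes called, among 44.4% of all genes. In WT cells it stood at 10.1 and 9.39 FPKM on day 1, after 11.2 and 27 FPKM, and the 2 undifferentiated libraries differ so much that the change of -0.78 was not called (adjusted p = 0.121); without undifferentiated WT replicate 1 it was -1.38 (adjusted p = 0.0054). None of the 6 genes was called in WT cells on day 1 with limma, where 16.8% of all genes were, and 2 (Hes1 and Nrarp) had an unadjusted p under 0.05. The call for Hes1 in Foxa2-/- cells was lost without replicate 2 of the undifferentiated cells or replicate 3 of day 1, with 0 of 6 genes called in each case.

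Between Foxa2-/- and WT cells, no difference in these genes was called before day 2. Undifferentiated, none of the 6 genes was called or had an unadjusted p under 0.05 with limma, and 0.377% of all genes were called. On day 1 none was called and Hes5 alone had an unadjusted p under 0.05, among 1.88% of all genes called. Hes5 was at 0.462, 1.56 and 1.25 FPKM in Foxa2-/- cells on day 1, against 0 and 0.0226 FPKM in WT cells, so that the groups did not overlap (log2 fold change 1.01 ± 0.38, adjusted p = 0.217). With a pseudocount of 0.1 in place of 1 the day 1 difference of Hes5 was called, at 3.29.

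On day 2 Hes5 and Nrarp were higher in Foxa2-/- cells, 2 of the 6 genes tested, where 5.31% of all genes were called. That background moved with single libraries, between 258 genes called without WT replicate 1 and 6039 without Foxa2-/- replicate 2, against 875 with all of them. Hes5 had 44.3, 15.6 and 17.4 FPKM in Foxa2-/- cells, against 2.58 and 4.79 FPKM in WT cells. All Foxa2-/- libraries lay above both WT libraries, and the log2 fold change was 2.40 ± 0.38 (adjusted p = 0.00415). Nrarp had 12, 11 and 12.6 FPKM in Foxa2-/- cells, against 4.79 and 4.57 FPKM in WT cells. Its libraries agreed closely within each group and did not overlap, with a log2 fold change of 1.17 ± 0.13 (adjusted p = 0.000414). Without the 2 Foxa2-/- libraries of unusual length dependence both stayed called, at 1.87 for Hes5 (adjusted p = 0.0323) and 1.08 for Nrarp (0.0152). With only the groups compared in the fit neither was called (adjusted p = 0.247 and 0.121), and without WT replicate 1 the call for Hes5 was lost (2.05, 0.0699).

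The rise from undifferentiated cells to day 2 was itself larger in Foxa2-/- cells for Nrarp, by 1.28 ± 0.18 on the log2 scale (adjusted p = 0.00769), the only 1 of the 6 genes so called, among 1.01% of all genes. It was not called with a pseudocount of 0.1 (adjusted p = 0.0775) or with only the groups compared (0.0747), and without Foxa2-/- replicate 2 of day 2 the number of all genes called was 3984, against 166. For Hes5 the same difference was 2.31 ± 0.54 and was not called (adjusted p = 0.08), though it was without Foxa2-/- replicate 1 (1.85, 0.0448) or 2 (2.57, 0.00784) of day 2. The proneural genes of this time, whose products drive neurogenesis, were also higher: Neurog2 had 11.2, 9.48 and 9.36 FPKM in Foxa2-/- cells on day 2, against 2.35 and 4.76 FPKM in WT cells, a log2 fold change of 1.32 ± 0.19 (adjusted p = 0.00193). Neurog1 and Olig2 were higher as well, by 1.01 and 0.71 (adjusted p = 0.0214 and 0.0229). Without the 2 Foxa2-/- libraries of unusual length dependence none of the 3 was called, at adjusted p of 0.0565 for Neurog2, 0.113 for Neurog1 and 0.15 for Olig2. Neurog1 and Olig2 were also lost without WT replicate 1 (adjusted p = 0.194 and 0.162) or 2 (0.0538 and 0.133), and Olig2 without Foxa2-/- replicate 3 (0.0525). These 3 were the ones called of 7 genes tested in the proneural list, whose median log2 fold change was 0.34, against -0.03 over all genes. Of all genes, 5.31% were called on day 2. Of 8 neural progenitor markers 5 were higher in Foxa2-/- cells on day 2, and the list summed to 956 to 1461 FPKM, against 779 to 839 FPKM in WT cells. These sums carry the higher FPKM totals of the Foxa2-/- libraries of that day, given above. The number of progenitor markers called was 0 with only the groups compared, and 5 and 4 with median-of-ratios and quantile scaling. Without single Foxa2-/- libraries it was 3 to 6. Fewer than 5 were called without either WT replicate, or without Foxa2-/- replicates 1 and 3 together, fits that leave 1 library in a group. Of 5 floor plate markers tested on day 2, the targeted gene Foxa2 among them, 4 were lower (list median -2.52). The floor plate list summed to 21 to 23.5 FPKM in Foxa2-/- cells, against 106 to 148 FPKM in WT cells. The part of either list in the differences of Hes5 and Nrarp was not tested.

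Hey1 was the gene of the group that was lower in Foxa2-/- cells from day 3.5 to day 7.5. On day 3.5 it had 11.1, 11 and 9.99 FPKM in Foxa2-/- cells, against 55.5, 43.8 and 46.2 FPKM in WT cells. On day 5.5 it had 29.1, 45.3 and 37.2 FPKM in Foxa2-/- cells, against 128.9, 124 and 120.2 FPKM in WT cells. On day 7.5 it had 33.1 and 31.7 FPKM in Foxa2-/- cells, against a mean of 103.2 ± 25.8 FPKM in WT cells (SD, n = 3), of which 2 libraries had 88.6 and 88 FPKM and replicate 1 more. The groups did not overlap on any of the 5 days, and the highest Foxa2-/- value of all these days, 50.9 FPKM in replicate 2 of day 6.5, was below the lowest WT value of the same day, 118 FPKM. The log2 fold changes for days 3.5, 4.5, 5.5, 6.5 and 7.5 were, in that order, -2.08 ± 0.17, -1.96 ± 0.17, -1.74 ± 0.17, -1.57 ± 0.19 and -1.61 ± 0.19, with adjusted p from 7.25e-08 to 4.01e-06. Hey1 was called on each of these days under every alternative setting. It was the only 1 of 7 genes called on day 3.5, where 3.38% of all genes were.

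Heyl, a low gene whose product belongs to the same repressor family, was lower beside it on days 4.5 and 5.5. On day 5.5 it had 0.23, 0.205 and 0.523 FPKM in Foxa2-/- cells, against 2.41, 1.58 and 1.42 FPKM in WT cells, without overlap (-1.08 ± 0.19, adjusted p = 0.000439). On day 4.5 it had 0.117, 0.153 and 0.153 FPKM in Foxa2-/- cells, against 0.804, 1.16 and 0.502 FPKM in WT cells, and the fold change of -0.66 had an adjusted p of 0.0403. The day 4.5 call was lost without any 1 of 5 libraries (all but WT replicate 3), with adjusted p from 0.0979 to 0.154 in these fits, and also under 4 other settings, quantile scaling among them. Heyl had the same sign on days 3.5, 6.5 and 7.5, at -0.26, -0.46 and -0.45, and was not called. Hey1 and Heyl were the 2 of 7 genes called on days 4.5 and 5.5, where 7.5% and 14.3% of all genes were called. Heyl would not have passed the filter without the WT libraries, where it was higher, so its calls are a description.

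Genes of the floor plate, the ventral midline cells that need Foxa2, were lower in Foxa2-/- cells beside Hey1. On every day from 3.5 on 8 of 8 floor plate markers were lower, where 3.38% to 25.8% of all genes were called. These markers include Foxa2 itself, the targeted gene, whose fall was given in advance. The list summed to 32.2 to 41.9 FPKM in Foxa2-/- cells on day 3.5, against 331 to 443 FPKM in WT cells, and to 92.1 to 163 FPKM in Foxa2-/- cells on day 7.5, against 1906 to 2111 FPKM in WT cells. The fall in Hey1, about 4.22-fold on day 3.5 and 3.06-fold on day 7.5, was smaller than that of the list's median gene (log2 fold changes of -3.09 and -5.99). Between days 3.5 and 7.5 the list's median log2 change was 0.02 in Foxa2-/- cells and 2.46 in WT cells. Hey1 changed by 1.52 and 1.05. The median hides change of markers near the floor: the list's sum rose in Foxa2-/- cells, as given above. In these cells 2 of the 8 markers were called higher, where 32.1% of all genes were called. Of 4 smooth muscle and pericyte markers tested on day 7.5, Acta2 and Tagln were lower in Foxa2-/- cells (-3.65 and -4.79), Pdgfrb was higher (1.82) and Cnn1 was not called (-0.39). The list of 6 summed lower in Foxa2-/- cells, at 11.9 to 17.3 FPKM on day 7.5, against 124 to 258 FPKM in WT cells. On day 3.5 the sums of this list spread widely, at 12.6 to 199 FPKM in Foxa2-/- cells, against 133.2 to 260 FPKM in WT cells. The 4 markers tested had a median log2 fold change of -0.73 on that day, and 0 were called, where 3.38% of all genes were. The 7 endothelial markers summed to 16.8 FPKM or less in every library from day 3.5 on. What part these cell types had in the level of Hey1 or Heyl was not tested.

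**Figure D2:**
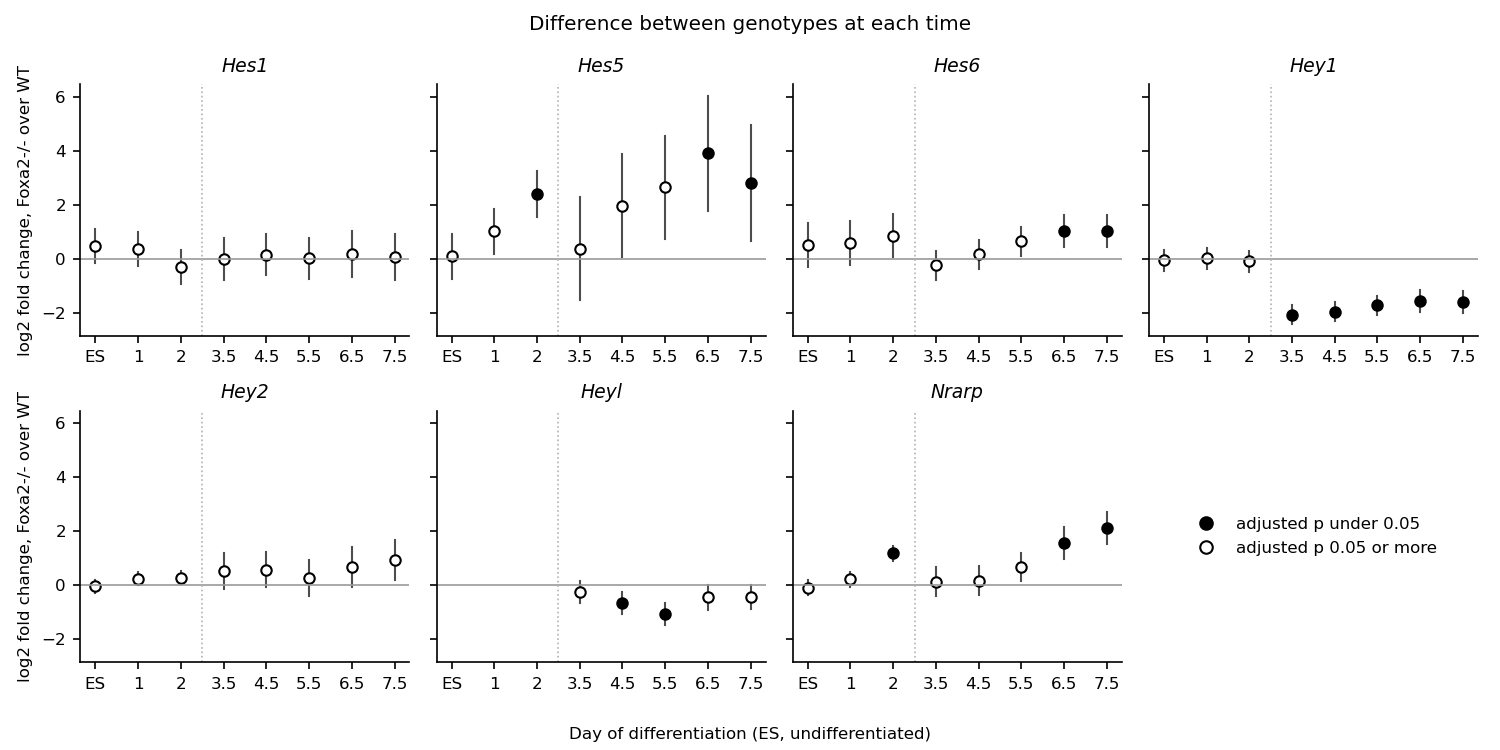
Log2 fold change of Foxa2-/- over WT cells at each time (points) with 95% intervals (lines), from limma, for the 7 genes that passed the filter; filled points had an adjusted p under 0.05, and the dotted line parts the 2 tables. Hey1 lies between -2.08 and -1.57 from day 3.5 on, Nrarp climbs to 2.13 by day 7.5, and Hes1 stays near 0 with wide intervals.

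Hes5, Hes6 and Nrarp were higher in Foxa2-/- cells on the last 2 days, the opposite direction to Hey1. With Hey1 they made 4 of 7 genes called on day 6.5 and the same 4 on day 7.5, where 24.9% and 25.8% of all genes were called. The median log2 fold change of the 7 genes was 0.66 on day 6.5 and 0.92 on day 7.5, against 0.07 and 0.04 over all genes tested.

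Nrarp, which feeds back on Notch signalling, was called on days 6.5 and 7.5 and not on days 3.5 to 5.5. On day 4.5 it had 31.4, 29 and 33.7 FPKM in Foxa2-/- cells, against 24.3, 32 and 28.2 FPKM in WT cells, and the groups overlapped. On day 6.5 it had 39.4 and 43.8 FPKM in Foxa2-/- cells, against 10.7, 14.7 and 15.7 FPKM in WT cells. On day 7.5 it had 30.7 and 33.3 FPKM in Foxa2-/- cells, against 10.2, 6.29 and 4.26 FPKM in WT cells. On both late days each Foxa2-/- library lay above every WT library, and the log2 fold changes were 1.55 ± 0.29 (adjusted p = 0.000434) and 2.13 ± 0.29 (adjusted p = 1.07e-05). Both calls held under all 13 alternative settings.

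Hes6, the family's antagonist of Hes1, had 38.8 and 35.8 FPKM in Foxa2-/- cells on day 7.5, against 18.7, 17.7 and 17.2 FPKM in WT cells. The libraries agreed within each group and did not overlap between them (1.02 ± 0.29, adjusted p = 0.0125). On day 6.5 it had 32.4 and 42.5 FPKM in Foxa2-/- cells, against 12.9, 15.8 and 26.9 FPKM in WT cells, again without overlap (1.03 ± 0.29, adjusted p = 0.0129). The day 6.5 call was lost without Foxa2-/- replicate 2 (0.84, adjusted p = 0.121) or WT replicate 1 (0.82, 0.0529), and the day 7.5 call without Foxa2-/- replicate 1 (0.97, 0.0975). On day 5.5 the groups also did not overlap, with 41, 33.4 and 43 FPKM in Foxa2-/- cells against 22, 25.9 and 25.8 FPKM in WT cells, but the difference of 0.65 was not called (adjusted p = 0.107).

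Hes5 had the largest and the least even differences. On day 6.5 it had 4.24 and 183 FPKM in the 2 Foxa2-/- libraries, against 0.684, 0.829 and 1.9 FPKM in WT cells. On day 7.5 it had 8.7 and 95 FPKM in Foxa2-/- cells, against 2.79, 4.37 and 3.04 FPKM in WT cells. The groups did not overlap on either day, but the Foxa2-/- replicates differed 43.1-fold and 10.9-fold from each other. The log2 fold changes were 3.90 ± 1.03 (adjusted p = 0.00837) and 2.81 ± 1.03 (adjusted p = 0.0489), called under 11 and 6 of 13 alternatives. With only the groups compared neither was called (adjusted p = 0.27 and 0.161). The day 7.5 call was also lost with no filter (0.072) and with isolated zeros as missing (0.0501). Both log2 fold changes rested on the high replicate 2 of each day. Without it they were 1.34 (adjusted p = 0.349) and 1.16 (0.508), and without WT replicate 1, 2 or 3 of day 7.5 that day's adjusted p was 0.0986, 0.0758 or 0.103. On days 4.5 and 5.5 the replicates were more even: Hes5 had 15.5, 24.8 and 16.9 FPKM in Foxa2-/- cells on day 4.5, against 2.55, 12.9 and 1.65 FPKM in WT cells. On day 5.5 it had 18.1, 42.2 and 22.2 FPKM in Foxa2-/- cells, against 4.23, 2.75 and 2.88 FPKM in WT cells. All Foxa2-/- libraries of these days lay above all WT libraries, at log2 fold changes of 1.96 ± 0.92 and 2.66 ± 0.92, and neither was called (adjusted p = 0.252 and 0.0583).

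The 2 libraries with the highest Hes5, Foxa2-/- replicate 2 of days 6.5 and 7.5, were also the highest of all 28 for Hes1, at 111 and 116 FPKM, against 30.2 and 45.3 FPKM in replicate 1 of the same days. Lfng, which encodes a glycosyltransferase that modifies Notch receptors, stood at 68.2 and 61.6 FPKM in them, against 18.5 and 21.2 FPKM in replicate 1. Notch1 stood at 95.8 and 87.3 FPKM, against 35.6 and 45.5 FPKM. The summed level of the 8 proneural genes went the other way, to 20.4 and 27.1 FPKM in replicate 2, against 56.9 and 48.1 FPKM in replicate 1, although Olig2 in that list was higher in replicate 2, at 2.17 and 7.61 FPKM, against 0.486 and 1.81 FPKM in replicate 1. Hey1, Hes6 and Nrarp differed less between these replicates (at most 1.64-fold). Markers of p3 progenitors summed to 136.8 and 145 FPKM in replicate 2, against 73.7 and 85.9 FPKM in replicate 1, and pluripotency markers to 10.6 and 13.9 FPKM, against 24.9 and 25.4 FPKM; their part in the difference was not tested.

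**Figure D3:**
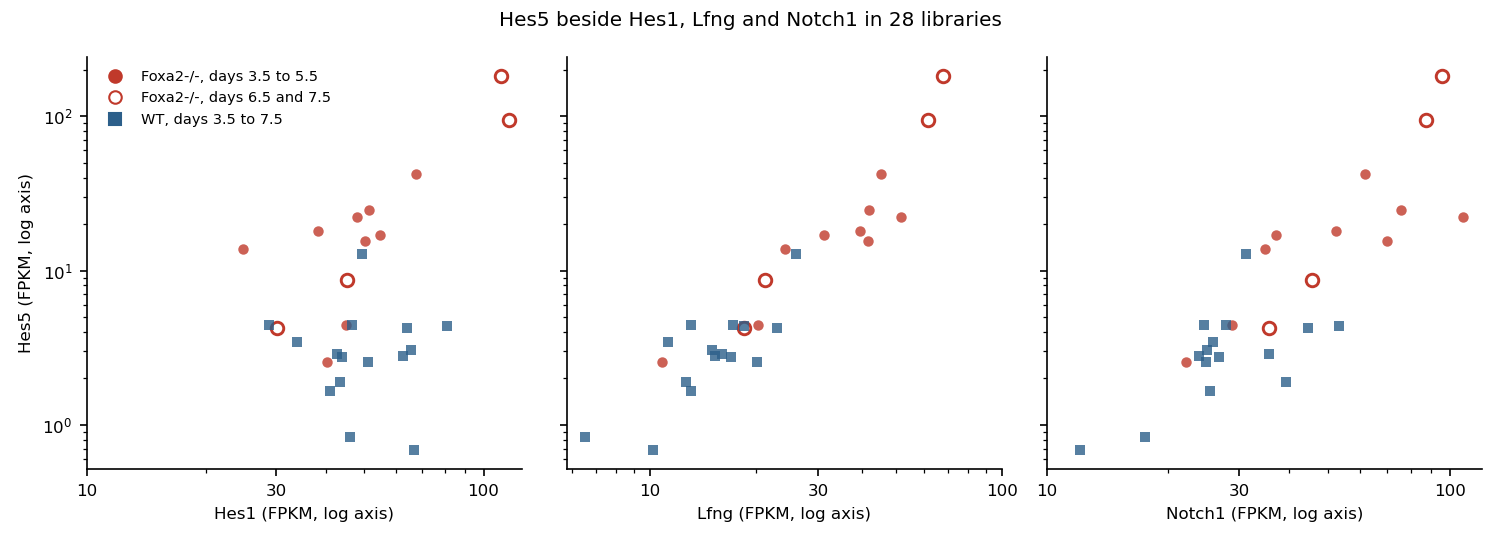
Hes5 (vertical, FPKM, log axis) against Hes1, Lfng and Notch1 (horizontal, FPKM, log axes) in the 28 libraries of days 3.5 to 7.5; filled red circles are Foxa2-/- libraries of days 3.5 to 5.5, open red circles Foxa2-/- libraries of days 6.5 and 7.5, and blue squares WT libraries. The open circles form 2 pairs, a high one at 183 and 95 FPKM of Hes5 and a low one at 4.24 and 8.7 FPKM.

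Hes1 did not separate the genotypes. On day 3.5 it had 24.8, 44.9 and 40.3 FPKM in Foxa2-/- cells, against 33.9, 28.9 and 46.6 FPKM in WT cells. On day 7.5 it had 45.3 and 116 FPKM in Foxa2-/- cells, against 62.6, 81 and 65.5 FPKM in WT cells. The groups overlapped on all 5 days, and the fitted differences lay between -0.01 and 0.18, with intervals that reached from -0.68 to 1.04 on day 6.5 and from -0.79 to 0.93 on day 7.5, so a change of up to about 2-fold was not detectable. Hey2, another low member, had 1.71 and 2.16 FPKM in Foxa2-/- cells on day 7.5, against 0.492, 0.412 and 0.75 FPKM in WT cells. These groups did not overlap, and the difference of 0.92 ± 0.36 was not called (adjusted p = 0.0644). On day 3.5 Hey2 had 5.97 FPKM in Foxa2-/- replicate 1, one of the libraries of unusual length dependence, and 0.97 and 0.944 FPKM in the other 2.

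Hes3 was below the filter throughout but showed a pattern of its own. On day 1 it had 0.377, 0.516 and 0.61 FPKM in Foxa2-/- cells, against 0.048 and 0.0297 FPKM in WT cells. From day 4.5 on it was at 0.0371 FPKM or less in Foxa2-/- cells, with 6 of 10 libraries at 0, against 0.0582 to 0.955 FPKM in the 12 WT libraries. The groups did not overlap on day 1 or on any day from 4.5 to 7.5. In a fit without the filter, the day 1 difference was called (0.53 ± 0.09, adjusted p = 0.0195) and those of days 4.5 to 7.5, between -0.51 and -0.16, were not (adjusted p from 0.105 to 0.688). Hes7 reached at most 0.193 FPKM, an estimated 13 fragments, up to day 2, and at most 0.0968 FPKM, an estimated 3 fragments, in the Foxa2 arm from day 3.5 on, where 17 of 28 libraries were at 0; its highest value in the Nkx2.2 arm was 0.16 FPKM. Presomitic mesoderm markers were low with it, at a sum of 14.5 FPKM or less in Foxa2-/- and 10.6 FPKM or less in WT cells of the Foxa2 arm from day 3.5 on, and at 17.5 to 20.1 FPKM in Nkx2.2-/- and 20.7 to 24.1 FPKM in WT cells of the Nkx2.2 arm. Their list includes Dll3, which is also in the list of Notch ligands below, so these sums hold the level of that gene too.

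Between days 3.5 and 7.5 Hey1 and Heyl rose in both genotypes, and Nrarp and Hes6 changed differently in them. In Foxa2-/- cells Hes6, Hey1 and Heyl rose, 3 of 7 genes, where 32.1% of all genes were called. In WT cells Hes1, Hey1 and Heyl rose and Nrarp fell, 4 of 7 genes, where 46.8% were called. Hey1 rose by 1.52 ± 0.19 in Foxa2-/- cells and by 1.05 ± 0.17 in WT cells, a difference of 0.46 that was not called (adjusted p = 0.33). Nrarp changed by 0.47 ± 0.29 in Foxa2-/- cells, which was not called (adjusted p = 0.221) except without replicate 1 of day 3.5 (0.79, 0.0356), and fell by 1.54 in WT cells (SE 0.26, adjusted p = 5.08e-05). The difference between these changes was 2.00 ± 0.38 (adjusted p = 0.0022) and was called under all 19 alternative settings. Hes6 rose by 1.05 ± 0.29 in Foxa2-/- cells (adjusted p = 0.0093) and changed by -0.22 ± 0.26 in WT cells (adjusted p = 0.515). Its difference of 1.28 ± 0.39 had an adjusted p of 0.0496 and was called under only 5 of 19 alternatives, with adjusted p from 0.0116 to 0.138. Nrarp and Hes6 were the 2 of 7 genes whose change differed, where 7.42% of all genes did. The rise of Hes1 in WT cells (0.94, adjusted p = 0.0428) was called under 8 of 14 alternatives; in Foxa2-/- cells it changed by 1.01 and was not called (adjusted p = 0.0669) except without replicate 1 of day 7.5 (1.68, 0.0101) and under quantile scaling (1.10, 0.0481). Without Foxa2-/- replicate 2 of day 7.5, 1 of the 3 calls in Foxa2-/- cells was left, that of Hey1, and the call of Heyl was also lost without replicate 1 of that day (adjusted p = 0.0518).

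**Figure D4:**
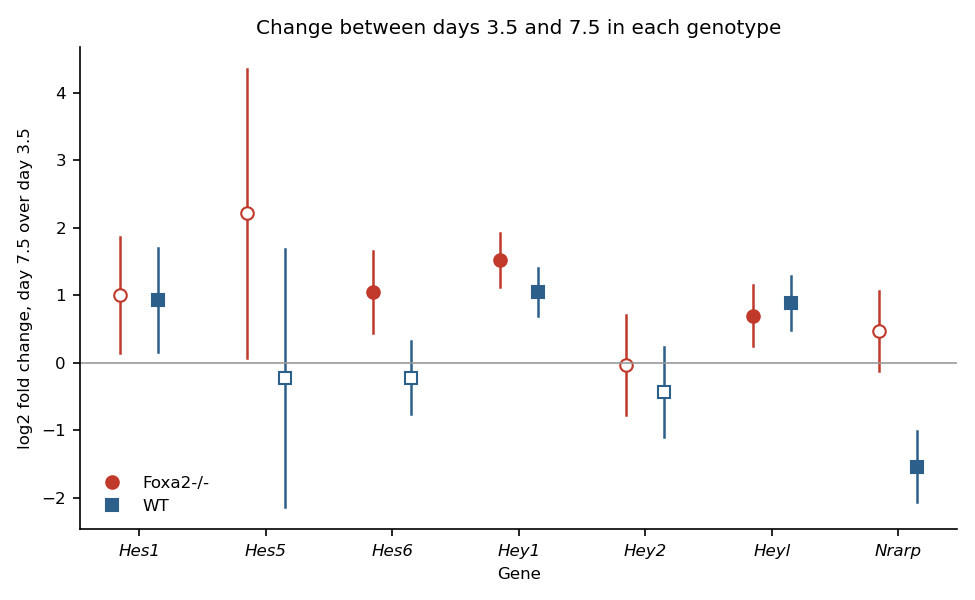
Log2 fold change between days 3.5 and 7.5 (points) with 95% intervals (lines) in Foxa2-/- cells (red circles, left of each pair) and WT cells (blue squares), from limma; filled points had an adjusted p under 0.05. Nrarp lies at 0.47 in Foxa2-/- cells and at -1.54 in WT cells, and Hey1 lies above 0 in both.

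Upstream of these genes, the Notch ligands were higher in Foxa2-/- cells on the last days, and in part at the start. Dll1, Jag1 and Dll3 were higher on day 7.5, 3 of 5 ligand genes, where 25.8% of all genes were called. The median over the list was 1.82, against 0.04 over all genes, and all 13 alternative settings called 3. Dll1, the main ligand of nascent neurons, had 151 and 159 FPKM in Foxa2-/- cells on day 7.5, against 35, 22.1 and 27.1 FPKM in WT cells (2.45 ± 0.39, adjusted p = 9.48e-05). Jag1, a ligand of the Serrate family, had 28 and 35.6 FPKM in Foxa2-/- cells, against 5.2, 6.64 and 3.94 FPKM in WT cells (2.40 ± 0.39, adjusted p = 0.000116). Dll3, which acts within the cell that makes it, had 12.2 and 10.1 FPKM in Foxa2-/- cells, against 4.12, 1.81 and 1.79 FPKM in WT cells (1.82 ± 0.36, adjusted p = 0.000752). The groups did not overlap for any of the 3. Dll1 and Jag1 were already higher on days 5.5 (1.61 and 1.29) and 6.5 (1.34 and 1.52), 2 of 5 ligands on each day, where 14.3% and 24.9% of all genes were called. The day 6.5 call for Dll1 was lost without Foxa2-/- replicate 2 (adjusted p = 0.0955) or WT replicate 1 (0.0663), and the day 5.5 call for Jag1 without WT replicate 1 (0.0996) or Foxa2-/- replicate 2 (0.0541). Their changes between days 3.5 and 7.5 differed between genotypes by 2.35 for Dll1, 2.15 for Dll3 and 2.32 for Jag1 (adjusted p = 0.00789, 0.00779 and 0.00841). Before day 3.5, Dll1 was higher in undifferentiated Foxa2-/- cells (1.53, adjusted p = 0.0311) and on day 1 (1.36, 0.0224), Jag1 on day 1 (1.03, 0.0366) and Dll3 on day 2 (1.32, 0.0283). Each of these 4 early calls was lost without at least 3 of the single libraries compared, with adjusted p up to 0.29.

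Of 4 receptor genes, Notch2 was lower in Foxa2-/- cells on day 2 and on days 4.5 to 7.5, where 5.31% to 25.8% of all genes were called. On day 7.5 it had 12.4 and 18.6 FPKM in Foxa2-/- cells, against 41.6, 36.5 and 40.5 FPKM in WT cells, without overlap (-1.32 ± 0.35, adjusted p = 0.00788). Its call was lost without Foxa2-/- replicate 1 on day 6.5 (-1.19, adjusted p = 0.0529) and day 7.5 (-1.04, 0.132), without WT replicate 1 or Foxa2-/- replicate 1 on day 5.5 (0.0917 and 0.0932), and without WT replicate 1 on day 2 (0.0522). On day 4.5 any single library but WT replicate 2 decided it, with adjusted p from 0.0546 to 0.228. Notch1 was higher on day 6.5 alone (1.48 ± 0.47, adjusted p = 0.0251), where its groups overlapped, and the call was lost without Foxa2-/- replicate 2 (0.78, adjusted p = 0.356) and without WT replicate 1 (1.12, 0.0974) or 2 (1.37, 0.0757). Among 15 genes for Notch modifiers and gamma-secretase, 2 were higher and 4 lower on day 7.5, at a median of -0.13, where 25.8% of all genes were called. The glycosyltransferase gene Mfng was higher by 1.61 ± 0.34 (adjusted p = 0.00132), and the protease gene Adam10 and the gamma-secretase genes Ncstn and Aph1b were lower by between 0.50 and 0.82. Lfng was higher on days 5.5 (1.25, adjusted p = 0.0404) and 6.5 (1.81, 0.00542). Without Foxa2-/- replicate 2 the day 6.5 difference was 0.90. On day 5.5 any single library but WT replicate 1 decided the call (adjusted p from 0.0695 to 0.12). Lfng was also higher on day 1, the 1 gene called of these 15, where 1.88% of all genes were. Its day 1 log2 fold change was 1.73 to 2.48 over the alternative settings, lowest without WT replicate 1.

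Among 13 genes of the RBPJ complex and of the Groucho corepressors on which HES proteins rely, 3 were higher and 1 lower on day 7.5, with a median of -0.08. On that day 25.8% of all genes were called, the share to set beside each list count of day 7.5. The corepressor genes split: Tle4 was higher by 2.93 ± 0.26 and Tle1 by 1.01 ± 0.20, and Tle2 was lower, with a mean of 1.18 FPKM in Foxa2-/- cells against 15.1 FPKM in WT cells (-2.85 ± 0.32, adjusted p = 1.08e-06). Of 7 proneural genes tested, Olig2 and Neurod4 were higher on day 7.5 (2.14 and 2.01, adjusted p = 0.0178 and 0.0374), Olig2 not without Foxa2-/- replicate 2 (1.33, adjusted p = 0.222). Neuron markers, which rise as progenitors differentiate, had a median of -0.24 on day 6.5 and sums that overlapped (322 to 367 FPKM in Foxa2-/- cells, against 258 to 645 FPKM in WT cells). On that day they were higher in 1 of 7 cases, where 24.9% of all genes were called. On day 7.5 they were higher in 4 of 7 cases (0 with only the groups compared, 1 without WT replicate 3 or Foxa2-/- replicate 2, 2 without replicate 1 of either genotype), and summed to 333 to 476 FPKM in Foxa2-/- cells, against 189 to 249.2 FPKM in WT cells. Markers of p3 progenitors, the neighbours of the floor plate, were higher in 3 of 4 cases on days 4.5 to 7.5, where 7.5% to 25.8% of all genes were called. The part of these cell types in Hes5, Hes6, Nrarp and the ligands was not tested.

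Genes with the most similar course were ranked by Pearson's r of log2(FPKM + 1) over the 28 libraries of days 3.5 to 7.5, among 11459 genes with a mean of at least 5 FPKM. The libraries share groups and tables, so r describes these libraries only. Hey1 was closest to Fjx1 (r = 0.961), Ntn1 (0.943), which is also 1 of the 8 floor plate markers, and Trim9 (0.939). Hes5 was closest to Lfng (0.934), Fam181a (0.916) and Aldh2 (0.893), and Nrarp to Cxcr7 (0.930), Zfp41 (0.903) and Zfp334 (0.893). Hes6 was closest to Rnf122 (0.897), Tmem206 (0.880) and Rprm (0.878). Hes1 and Hey2 had looser neighbours, at most 0.848 (Cst3) and 0.813 (Slc7a1). Among the members themselves, r over all 28 libraries was highest for Hes5 with Hes6 (0.731) and Hes6 with Nrarp (0.722) and lowest for Hey1 with Hey2 (-0.692), but it mixes genotypes whose means differ. Within the Foxa2-/- libraries Hes6 with Nrarp (0.835), Hes6 with Hey1 (0.813) and Hes1 with Hes5 (0.809) were highest, and Hey1 with Nrarp was 0.743, against -0.427 over all libraries. Within the WT libraries Hes5 with Hes6 (0.644) and Hes6 with Nrarp (0.642) were highest. After group means were removed the highest r were Hes1 with Hes5 (0.669) and Hey2 with Nrarp (0.653), and that of Hey1 with Hey2 was -0.139.

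The Nkx2.2 arm has single libraries and so no test; there Hey1, Heyl and Nrarp were lower in the Nkx2.2-/- library on both days. Nkx2-2, the targeted gene, was at 1.34 and 3.38 FPKM in the Nkx2.2-/- libraries of days 3.5 and 5.5, against 19.6 and 28.7 FPKM in the WT libraries; whether these reads come from outside a deleted part was not tested. The day of the day 5.5 libraries is taken from their titles, since their stage label reads 3.5 days. Hey1 had 28.7 FPKM in Nkx2.2-/- and 39.3 FPKM in WT cells on day 3.5, and 83.6 FPKM in Nkx2.2-/- and 132.9 FPKM in WT cells on day 5.5. Nrarp had 11.6 against 18.6 FPKM on day 3.5 and 17.1 against 31.4 FPKM on day 5.5 in Nkx2.2-/- and WT cells. Heyl had 0.492 FPKM in Nkx2.2-/- and 0.73 FPKM in WT cells on day 3.5, and 0.793 FPKM in Nkx2.2-/- and 3.28 FPKM in WT cells on day 5.5. Its day 5.5 difference of -1.25 on the log2(FPKM + 1) scale was the only one of 6 measured genes of 1 or more, but Heyl was measured only because it reached FPKM 1 in the WT library of day 5.5. None of the 6 differed by 1 on day 3.5; 4.63% of all genes reached 1 on day 3.5 and 4.48% on day 5.5.

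Hes1, Hes5 and Hes6 lay closer together in the 4 libraries of this arm, with differences between Nkx2.2-/- and WT cells from -0.22 to 0.19. Between days 3.5 and 5.5 Hey1 was higher on the later day by 1.51 in Nkx2.2-/- cells and by 1.73 in WT cells. Hes5 had 12.3 FPKM in Nkx2.2-/- and 12.1 FPKM in WT cells on day 5.5, after 5.18 and 5.79 FPKM, differences of 1.11 and 0.95. With Hey1 and Hes5, 2 of 6 genes passed 1 in Nkx2.2-/- cells, where 5.16% of all genes did; with Hey1 and Heyl (1.31), 2 of 6 did in WT cells, where 6.99% did; Heyl was kept by the filter only through the later of these WT libraries. No Notch receptor, ligand, modifier or gamma-secretase gene of the lists differed by 1 or more between Nkx2.2-/- and WT cells on either day. Of 5 proneural genes measured, Olig2 (1.32) and Neurog1 (1.17) were higher by more than 1 in the Nkx2.2-/- library of day 5.5. Of all genes, 4.48% reached 1 in either direction on that day. In that library 8 floor plate markers summed to 1630 FPKM, against 1931 FPKM in the WT library. On day 3.5 the floor plate sum was 759 FPKM in Nkx2.2-/- and 709 FPKM in WT cells. Markers of p3 progenitors, Nkx2-2 as the targeted gene among them, summed to 306 and 220 FPKM in Nkx2.2-/- cells on days 3.5 and 5.5. In WT cells they summed to 196 and 147 FPKM, and the part of these cell types was not tested.

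**Figure D5:**
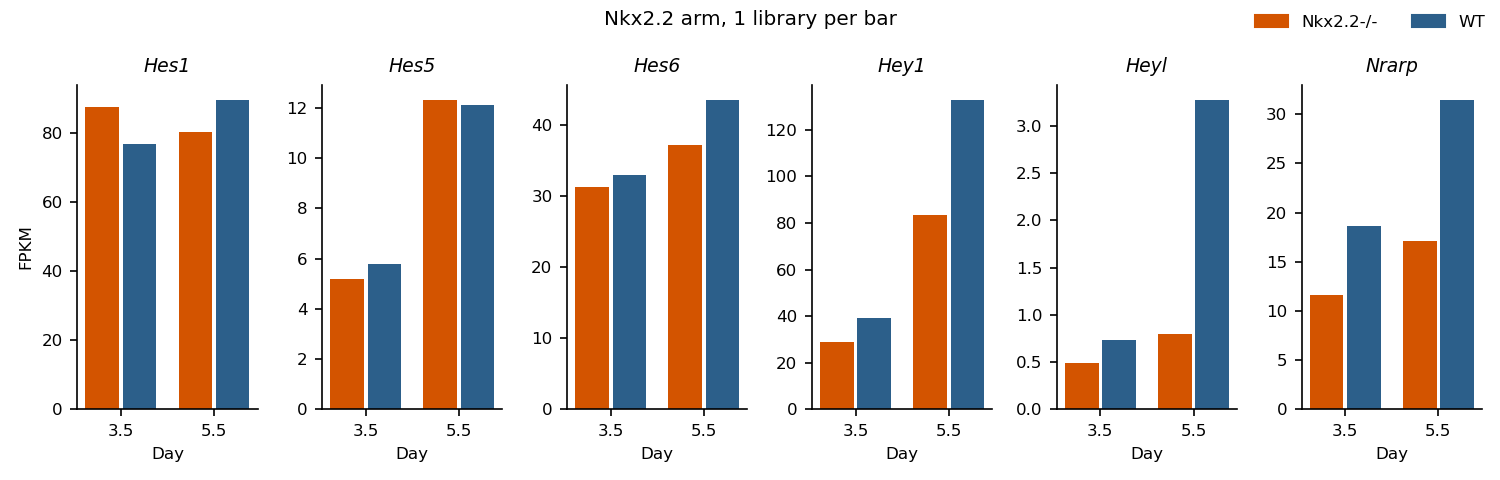
FPKM of the 6 measured genes in the 4 libraries of the Nkx2.2 arm, with Nkx2.2-/- (orange) left of WT (blue) on days 3.5 and 5.5; each bar is 1 library and starts at 0. Hey1, Heyl and Nrarp are lower in Nkx2.2-/- cells on both days, while the bars of Hes5 differ little.

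Overlaps in the annotation touch 3 of the genes: in GENCODE M21 a gene on the opposite strand overlaps Hes5 (Gm20421), Hes7 (9130213A22Rik) and Nrarp (Gm38287). The kit keeps strand, but whether the counting used it is not given in the sources used here, so reads of these pairs could be shared.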

How the data were processed

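Values were FPKM per gene as the authors deposited them, in 3 tables; per the submitters' processing notes the tools included TopHat2 2.0.4, HTSeq 0.6.1 and Cufflinks 2.1.1 with mouse build GRCm38 (mm10), in an order not given in the sources used here. The raw counts behind FPKM were not used here, so fragment totals are estimates from the smallest steps of the values. The 9 genes and the 14 comparison lists (101 genes) were chosen with earlier results of these data known. In each of the 2 tables of the Foxa2 arm, every gene that reached FPKM 1 in 2 or more libraries (16465 and 17124 genes) entered one limma 3.58.1 trend fit (R 4.3.3) on log2(FPKM + 1) over all groups of the table, with Benjamini-Hochberg adjustment over all genes and 16 comparisons in all. For the 4 libraries of the Nkx2.2 arm, 15141 genes at FPKM 1 or more in any library were compared by log2 differences, without a test. Errors given with ± are standard errors for log2 fold changes. The genes named were all 9 members in every group, Foxa2 and Nkx2-2 as checks, from each list at most 4 called genes in either direction, and the 3 genes with the most similar course to each member; genes named beside these for a pattern (Lfng, Notch1, Acta2, Tagln, Prom1) were chosen after their values were seen. The alternatives tried were quantile and median-of-ratios scaling, no filter, 0.1 as pseudocount, only the groups compared, isolated zeros as missing, a replicate block, each library left out and, added after seeing the data, removal of each library's trend with transcript length. The fits were tested on simulated data first. Replicate numbers were not taken to pair the samples in the main fits, since the labels give no shared origin. Another 3 columns, which matched no sample, were not used. One gene of the proneural list is not reported here by name.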

Additional observations from a re-analysis of the deposited data

Results flagged for a closer look

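For 3 results a test of the difference between genotypes in a change over time itself passed the threshold, which is why they are listed. The change of Nrarp from undifferentiated cells to day 2 was larger in Foxa2-/- than in WT cells by 1.28 on the log2 scale (adjusted p = 0.00769, limma), with 3 of 3 Foxa2-/- libraries of day 2 above both WT libraries. The change of Nrarp between days 3.5 and 7.5 was higher by 2.00 in Foxa2-/- cells (adjusted p = 0.0022), and that of Hes6 by 1.27 (adjusted p = 0.0496). The Hes6 result passed under 5 of 19 alternatives, and its cause was not tested.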

How the results depend on the processing

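Counts of the 9 genes called moved with the settings as follows, from limma. Only the groups compared in each fit gave 0 on day 2 (2 with all groups), 1 on day 4.5 (2), 4 on day 5.5 (2), 2 on day 6.5 (4), 4 for Foxa2-/- day 1 against undifferentiated cells (1), and 0 and 1 for the differences in change to day 2 (1) and from day 3.5 to 7.5 (2). A pseudocount of 0.1 gave 1 on day 1 (0), 2 and 1 for day 1 against undifferentiated Foxa2-/- and WT cells (1 and 0), and 0 and 1 for the 2 differences in change. No filter gave 1 on day 1, 4 for Foxa2-/- day 1 against undifferentiated cells and 1 for the later difference in change. Quantile scaling gave 1 on day 4.5, 4 on day 5.5, and 3 and 1 for day 1 against undifferentiated Foxa2-/- and WT cells; median-of-ratios scaling and isolated zeros as missing gave 2 and 1 there. Removing the length trend gave 1 on day 4.5. Hey2 on day 1 against undifferentiated Foxa2-/- cells turned to -0.11 under quantile scaling (0.24 with the main settings), and was called under neither. At 0.24 Hey2 was called there with no filter (adjusted p = 0.0157), isolated zeros as missing (0.03) and only the groups compared (0.0315). The cause of these moves was not tested.

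With a replicate block, 1 gene was called on day 4.5 and 1 for the later difference in change, and no other count of members moved past 1.5 times. Whether shared replicate numbers pair the samples could not be decided. Over 19 same-numbered pairs the correlation of deviations was -0.281 to 0.412, and 6 exceeded 0.1. Over 38 pairs with different numbers it was -0.412 to 0.305, and 9 exceeded 0.1. In groups of 2 libraries the deviations mirror each other, which fixes many of these values against one another.

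Leaving out 1 library at a time gave 1 to 3 calls on day 2, 1 to 2 on day 4.5, 2 to 4 on day 6.5, 0 to 2 and 0 to 1 for day 1 against undifferentiated Foxa2-/- and WT cells, 1 to 4 for Foxa2-/- day 7.5 against day 3.5, and 1 to 2 and 1 to 3 for the earlier and later difference in change. The lowest counts came without WT replicate 1 on day 2, without Foxa2-/- replicate 2 on days 6.5 and 7.5, and without any of 5 libraries on day 4.5.

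Over all genes, calls on day 2 numbered 875, against 32 with only the groups compared and 6039 without Foxa2-/- replicate 2, and the earlier difference in change 166, against 45 and 3984. With only the groups compared there were 11 calls for WT day 1 against undifferentiated cells (2774 with all groups), 640 on day 6.5 (4264), 2015 on day 7.5 (4411) and 660 for the change in Foxa2-/- cells to day 7.5 (5498). Quantile scaling moved the median of all genes by -0.288 for Foxa2-/- day 1 against undifferentiated cells and by -0.134 for Foxa2-/- day 7.5 against day 3.5. Late Foxa2-/- groups had 2 libraries, and genes near FPKM 1 rest on few fragments, which limits Heyl, Hey2, Hes3 and Hes7.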
